A study of Mus musculus with 6 samples.

Results

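The nuclear genes of the mitochondrial respiratory chain and ATP synthase were examined for acetylation of histone H4 at lysine 5 (H4K5ac) in the mouse hippocampus. The set held 45 genes, chosen by name from the subunits of the 5 complexes, out of 22367 protein-coding genes of the annotation. Complex I (NADH dehydrogenase) contributed 25 genes, complex II (succinate dehydrogenase) 4, complex III (cytochrome bc1) 5, complex IV (cytochrome c oxidase) 5 and complex V (ATP synthase) 6. Each gene was measured over its gene body, from the first annotated start to the last annotated end, and over its promoter, taken as the 2 kb before the transcription start site (TSS). All 45 genes had reads in both regions in all 6 libraries.

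Respiratory chain subunits form multi-protein complexes of the inner mitochondrial membrane that pass electrons from NADH and succinate to oxygen and pump protons, and ATP synthase uses the proton gradient to make ATP. Most subunits are encoded in the nucleus and expressed in nearly every cell type, and neurons depend heavily on them for ion pumping and synaptic transmission. H4K5ac is a mark of the histone H4 tail found at and around active promoters.

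Whole hippocampus was taken from male C57/BL6 mice, 6 months old by the labels, that had either learned contextual fear (FC) or served as context-only controls (CON). FC mice received foot shocks in the conditioning box on 2 occasions and were killed 1 h after a memory test on day 3, and CON mice explored the box without shock. From each group chromatin was precipitated with anti-H4K5ac (H4K5ac-ChIP), precipitated with non-specific immunoglobulin as a mock (IgG-IP), or sequenced without precipitation (input). Each of these 6 combinations is 1 library, so the spread between animals is not known, no test across samples was possible, and in whole tissue a change in the share of a cell type cannot be told apart from a change within cells.

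The libraries held 14549689 to 45673239 reads, fewest in FC IgG-IP and most in FC input, and 11.5% to 17.8% of the reads repeated the position and strand of another. Levels were expressed as reads per kb of region, scaled to 1000000 reads of the library (RPKM). Libraries were compared by the log2 ratio of their scaled reads, with an exact 95% binomial interval that covers counting error only. Where a pair of values is given without further words, the first is FC and the second CON. The labelled tissue was checked with 8 genes of hippocampal neurons, among them Camk2a and Neurod2, and 8 genes of other tissues, among them Alb and Krt5. The median H4K5ac-ChIP/IgG-IP log2 ratio of the gene body was 0.98 and 0.91 for the neuronal genes, with 7 of 8 above 0 in each group and Neurod6 below it, and 0.04 and 0.12 for the genes of other tissues, with 4 of 8 above 0 in each group. Pairs of astrocyte, oligodendrocyte, microglial and interneuron genes gave 0.77, 1.69, 0.85 and 0.47 in FC and 0.86, 1.24, 0.53 and −0.03 in CON.

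H4K5ac was higher than IgG-IP at the promoters of nearly all respiratory chain genes in both groups. Read density at the promoter ranged from 0.490 to 1.93 RPKM in FC H4K5ac-ChIP (median 1.06) and from 0.473 to 1.61 RPKM in CON H4K5ac-ChIP (median 0.945). In IgG-IP the medians were 0.309 (FC) and 0.394 RPKM (CON), and in input 0.504 (FC) and 0.423 RPKM (CON). In 43 of 45 genes both H4K5ac-ChIP densities lay above all 4 control densities of the same promoter, as they did in 49.9% of all protein-coding genes, and Cox7c and Atp5c1 were the exceptions. The corresponding medians over all protein-coding genes were 0.633 RPKM (FC) and 0.598 RPKM (CON) in H4K5ac-ChIP, against 0.344 and 0.364 RPKM in IgG-IP.

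**Figure D1:**
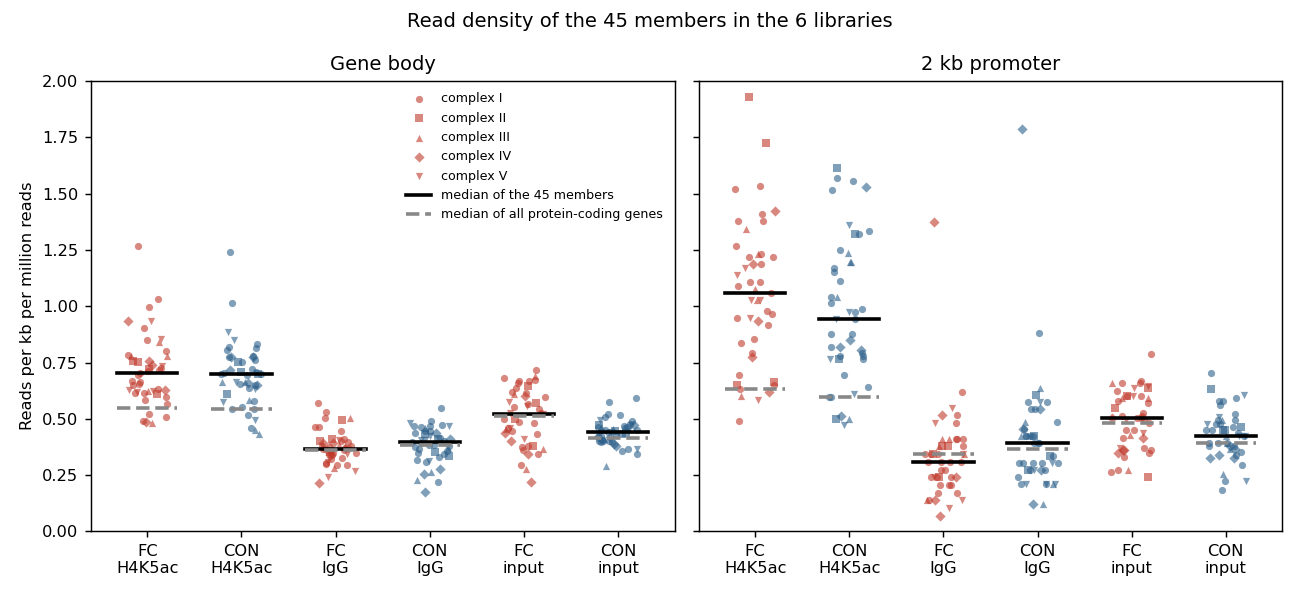
Read density in RPKM (vertical axis) of the 45 respiratory chain genes in each library (horizontal axis), for the gene body (left) and the 2 kb promoter (right); symbols give the complex, black lines the median of the 45 genes and dashed grey lines the median of all protein-coding genes. The H4K5ac-ChIP promoters have medians of 1.06 and 0.945, above the all-gene lines at 0.633 and 0.598, and Cox7c stands alone at the top of both IgG-IP promoter columns.

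At least 2-fold more H4K5ac-ChIP than IgG-IP was measured at the promoter of 38 of 45 genes in FC and 33 of 45 in CON, and in all protein-coding genes with at least 10 reads the share was 49.1% in FC and 42.4% in CON. The 45 genes had a median log2 ratio of 1.71 in FC and 1.33 in CON, beside 0.98 and 0.80 for all protein-coding genes. The 2-fold ratio was passed in both groups by 30 genes and in 1 group by 11. Ndufa2, Sdha, Cox7c and Atp5c1 stayed under it in both. The interval lay above 0 for 38 genes in FC and for 38 in CON, where the share of all genes was 48.5% and 44.9%, and it lay below 0 for Cox7c alone, where the share was 10.2% and 11.3%. With input as the control the 45 genes again exceeded all genes, but CON was now above FC, the medians being 1.10 in FC and 1.21 in CON for the 45 genes and 0.39 and 0.65 for all genes, and 26 genes passed 2-fold in each group, where the share of all genes was 23.1% and 34.6%. Promoters were also set against all promoters of equal GC content, whose median was subtracted from each, and 39 and 37 of the 45 genes then stayed above 0, with medians of 0.79 and 0.53.

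More than 50 H4K5ac-ChIP reads lay in the promoter of 34 of 45 genes in FC and 36 of 45 in CON, where 36.1% and 40.7% of all protein-coding genes had as many. This count depends on depth. In the FC input library, the deepest of the 6, 17 of the 45 promoters had more than 50 reads, close to the 35.2% of all genes, against 0 in CON input (0.697% of all genes), 0 in FC IgG-IP and 1 in CON IgG-IP.

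In the gene bodies H4K5ac was also above IgG-IP, by a smaller ratio. The median density was 0.701 RPKM in FC and 0.698 RPKM in CON H4K5ac-ChIP, with 0.367 and 0.397 RPKM in IgG-IP. The ratio to IgG-IP exceeded 0 in all 45 genes in both groups, from 0.34 to 2.10 in FC and from 0.22 to 2.05 in CON. Most of all protein-coding genes also exceeded 0, with medians of 0.67 and 0.58, but their exact share is not given. The interval of the ratio lay above 0 in 40 and 36 of the 45 genes, where the share of all genes was 62.3% and 60.2%. Both H4K5ac-ChIP densities lay above all 4 control densities in 39 gene bodies, against 48.3% of all genes, the exceptions being Ndufa4, Ndufa9, Ndufv1, Uqcrfs1, Cyc1 and Atp5a1. The ratio reached 2-fold in 15 genes in FC and 14 in CON, where the share of all protein-coding genes was 32.3% and 24.3%. In 9 genes it did so in both groups, namely Ndufb2, Ndufs3, Ndufs7, Ndufs8, Sdhb, Uqcrc1, Cox5b, Atp5d and Atp5o. The Atp5o body spans other genes, and over its own coding transcript the CON ratio was 0.31. Set against gene bodies of equal GC content, Ndufs8 (−0.10) and Sdhb (−0.0613) were below 0 in FC. A share of 15 in 45 is close to that of all genes, and the median log2 ratios were 0.87 and 0.78, beside all-gene medians of 0.67 and 0.58. Genes past 2-fold in 1 group were Ndufa5, Ndufa6, Ndufa8, Ndufa10, Ndufb5, Ndufb7, Cyc1, Cox5a, Cox7c, Atp5a1 and Atp5b, and the other 25 passed it in none. With input as the control library 3 genes passed 2-fold in each group, where the share of all genes was 4.15% in FC and 14.2% in CON.

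**Figure D2:**
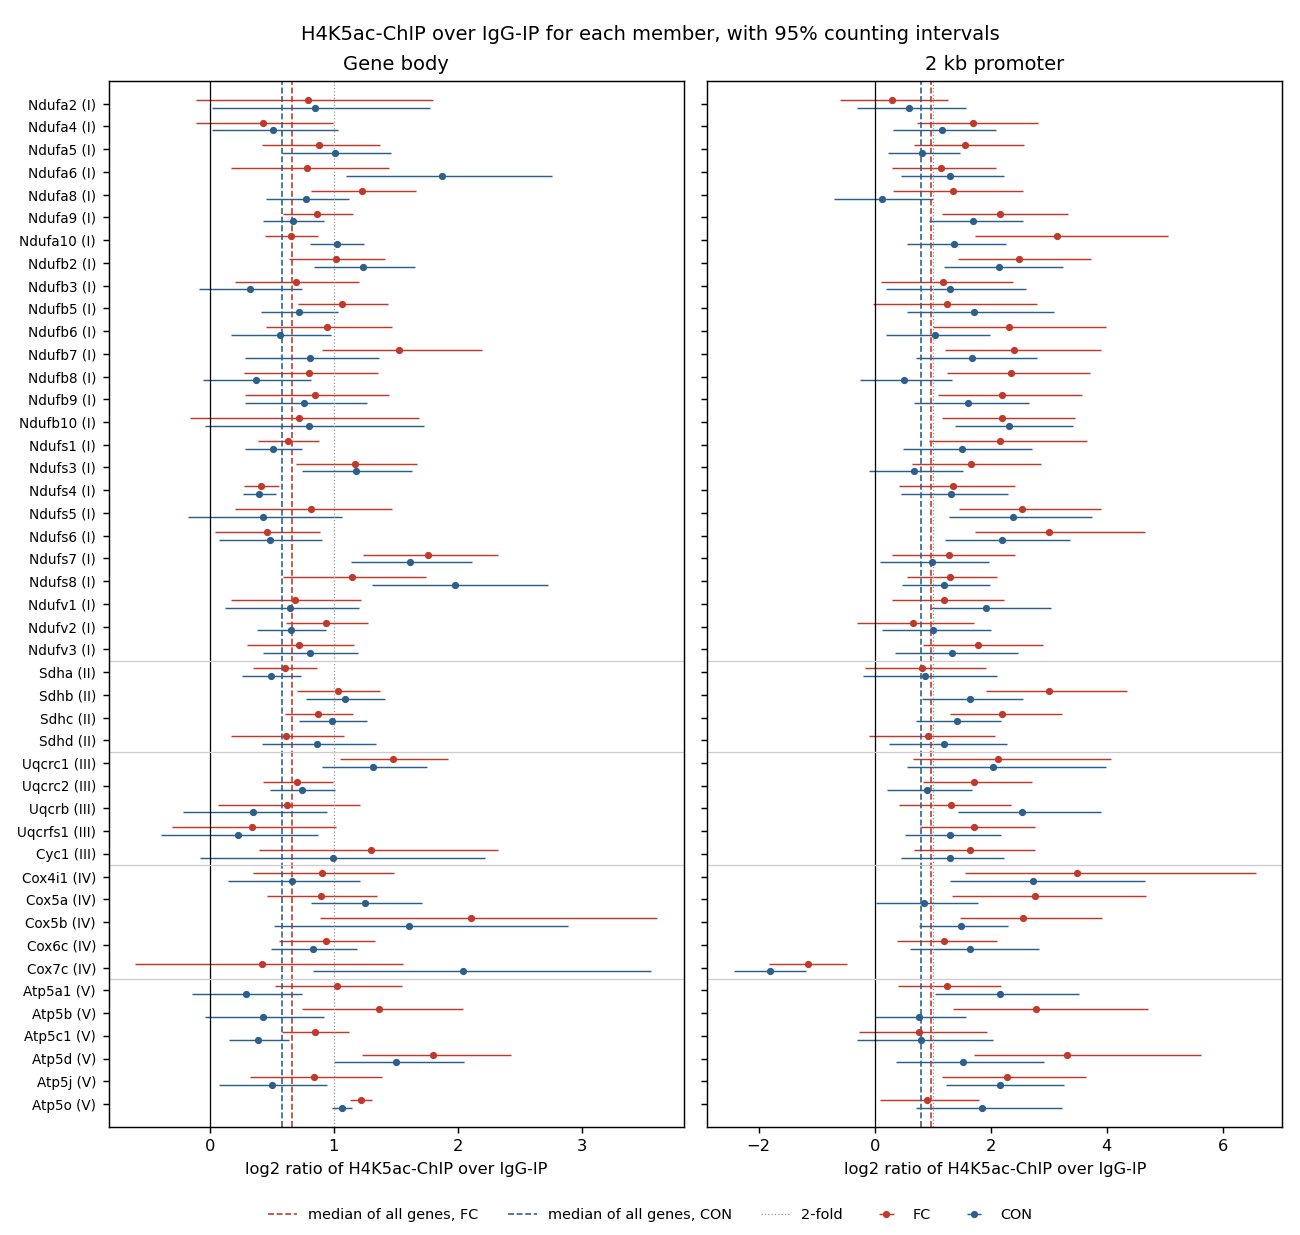
H4K5ac-ChIP/IgG-IP log2 ratio (horizontal axis) of each of the 45 genes (vertical axis, complex in brackets) in FC (red) and CON (blue), with exact 95% binomial intervals of the reads, for the gene body (left) and the 2 kb promoter (right); dashed lines are the medians of all protein-coding genes and the dotted line is 2-fold. Promoter ratios lie to the right of body ratios in 39 genes in FC and 35 in CON, and Cox7c is the only promoter below 0. The medians of all protein-coding genes are also higher at the promoter, 0.98 and 0.80, than in the body, 0.67 and 0.58.

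Read density fell from the promoter into the gene. In the 39 genes of at least 4 kb, median H4K5ac-ChIP density in FC was 1.03 RPKM in the promoter, 0.870 RPKM in the first 2 kb of the gene and 0.623 RPKM in the rest. In CON it was 0.945, 0.765 and 0.661 RPKM. The promoter was denser than the rest of the gene in 34 of 39 genes in FC and 31 of 39 in CON, whereas in IgG-IP this held for 13 and 15 of the 39. For all protein-coding genes of that length the promoter exceeded the rest in 66.2% (FC) and 63.4% (CON).

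Around the TSS the mean coverage of the 45 genes rose on both sides and dipped just downstream of the start. Coverage was averaged in bins of 50 bp, smoothed over 3 bins and expressed as reads over a base, scaled to 100000000 reads per library. The upstream summit was 6.43 at 425 bp upstream in FC and 6.57 at 375 bp upstream in CON, and for all protein-coding genes 3.60 and 3.31. A downstream summit of 5.18 at 525 bp (FC) and 5.11 at 775 bp (CON) followed. Between them coverage dropped to 3.23 in FC at 25 bp and to 1.97 in CON at 125 bp downstream. The upstream summit was 1.95 (FC) and 1.98 (CON) times the mean coverage 2 to 3 kb upstream, against 1.55 and 1.43 times for all genes. In IgG-IP the highest upstream point was 1.48 and 1.81 times that mean for the 45 genes, and 2.41 and 2.02 times for all genes. With 1 read per position and strand the IgG-IP values were 1.30 and 1.64 for the 45 genes, and 1.00 and 1.03 for all genes. The H4K5ac-ChIP values were then 1.94 and 2.01, against 1.54 and 1.42. With all reads again, input of the 45 genes did not exceed 2.84 (FC) and 2.37 (CON) upstream of the TSS. IgG-IP did not exceed 2.47 at 1075 bp and 2.82 at 1025 bp. Without Cox7c, whose IgG-IP reads are described further on, these IgG-IP values were 2.03 and 2.70, both at 1225 bp upstream. All 4 controls also dipped downstream of the TSS, input to 1.45 at 125 bp and 0.761 at 225 bp and IgG-IP to 0.809 at 125 bp and 0.771 at 275 bp.

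**Figure D3:**
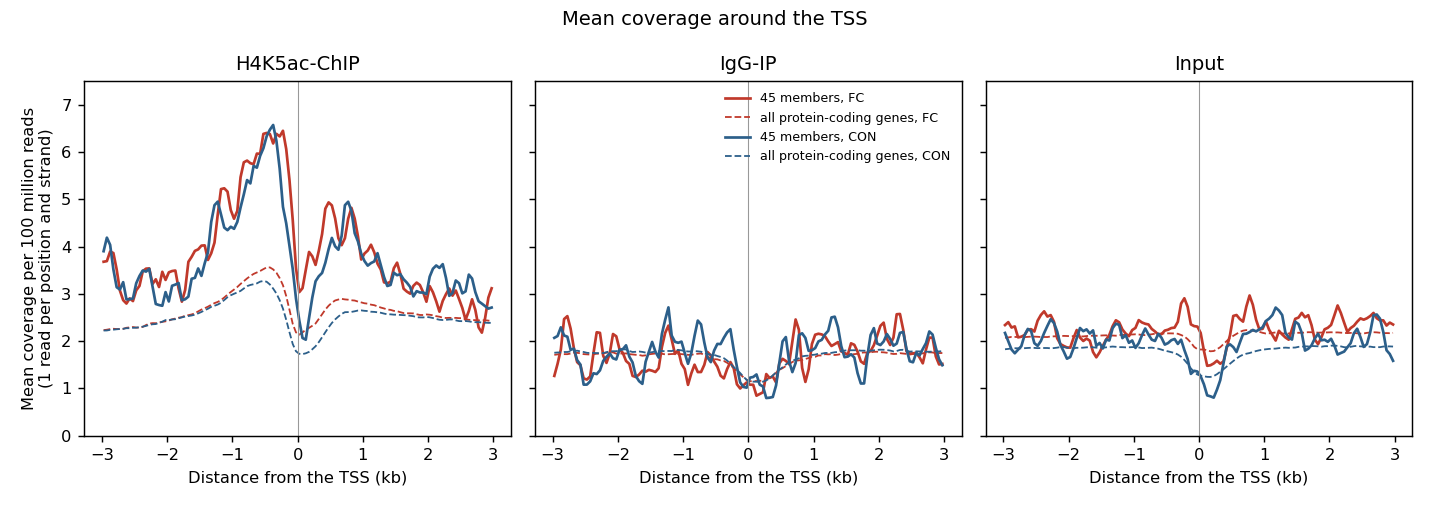
Mean coverage, scaled to 100000000 reads per library (vertical axis), by distance from the TSS in kb (horizontal axis) for the 45 genes (solid) and all protein-coding genes (dashed) in FC (red) and CON (blue), counting 1 read per position and strand. With such reads the upstream H4K5ac-ChIP summit of the 45 genes is 6.45 in FC and 6.57 in CON, against 3.56 and 3.27 for all genes, and coverage dips just downstream of the TSS in all 3 panels.

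Respiratory chain genes often share their promoter with a neighbour. A protein-coding gene on the opposite strand started within 1 kb of the TSS of 17 of the 45 genes (37.8%), as it did for 10.8% of all protein-coding genes, 36.8% of 76 mitochondrial ribosomal protein genes and 15.0% of 80 cytoplasmic ribosomal protein genes. Reads upstream of such a gene lie in its neighbour, and the deposited reads cannot be divided between the pair. Examples are Ndufs1 with Eef1b2, Sdhd with Timm8b, Ndufb5 with Mrpl47 and Atp5j with Gabpa, the last being a subunit of a transcription factor of respiratory chain genes. The median promoter log2 ratio over IgG-IP was 1.56 (FC) and 1.30 (CON) in the 17 genes with a divergent neighbour and 2.14 (FC) and 1.42 (CON) in the other 28. The median was no lower where there was no neighbour, which is a description without a test.

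Promoter sequence is shown for the 4 genes with the highest mean promoter ratio over IgG-IP, and for Cox7c with the lowest, among 24 genes whose 250 bases before the TSS overlap no other annotated gene and whose chromosome was among those used for display. The 250 bases are given 5′ to 3′ on the strand of the gene, in mm9 (NCBIM37) coordinates, Ndufs6 at chr13:73465991-73466240 (minus strand), Ndufs5 at chr4:123395446-123395695 (minus strand), Sdhb at chr4:140516868-140517117 (plus strand), Ndufb10 at chr17:24861424-24861673 (minus strand) and Cox7c at chr13:86186510-86186759 (minus strand). Capitals mark matches to 4 motifs searched on both strands, GCGCNTGCG (NRF1), CCGGAAG (ETS factors such as GABP), AAGATGGCG (YY1) and GGGCGG (Sp1 family), none of which contains another.
Ndufs6: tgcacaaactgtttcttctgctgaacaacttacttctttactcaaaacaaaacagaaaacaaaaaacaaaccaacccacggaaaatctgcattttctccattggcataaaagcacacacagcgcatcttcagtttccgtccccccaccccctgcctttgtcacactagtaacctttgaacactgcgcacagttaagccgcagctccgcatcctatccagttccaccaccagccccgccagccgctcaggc
Ndufs5: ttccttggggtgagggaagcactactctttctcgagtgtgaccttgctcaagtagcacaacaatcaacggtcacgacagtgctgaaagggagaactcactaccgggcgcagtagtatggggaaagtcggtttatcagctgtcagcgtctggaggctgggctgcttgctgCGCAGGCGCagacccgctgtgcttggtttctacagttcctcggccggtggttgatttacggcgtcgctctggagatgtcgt
Sdhb: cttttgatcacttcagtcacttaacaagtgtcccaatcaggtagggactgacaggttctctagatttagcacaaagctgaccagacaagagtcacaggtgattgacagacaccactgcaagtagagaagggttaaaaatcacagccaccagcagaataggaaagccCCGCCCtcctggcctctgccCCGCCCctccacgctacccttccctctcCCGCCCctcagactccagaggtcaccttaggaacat
Ndufb10: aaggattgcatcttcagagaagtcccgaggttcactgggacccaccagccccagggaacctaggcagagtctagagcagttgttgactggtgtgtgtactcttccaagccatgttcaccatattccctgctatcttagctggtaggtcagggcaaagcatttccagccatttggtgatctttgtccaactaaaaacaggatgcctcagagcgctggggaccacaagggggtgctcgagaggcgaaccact
Cox7c: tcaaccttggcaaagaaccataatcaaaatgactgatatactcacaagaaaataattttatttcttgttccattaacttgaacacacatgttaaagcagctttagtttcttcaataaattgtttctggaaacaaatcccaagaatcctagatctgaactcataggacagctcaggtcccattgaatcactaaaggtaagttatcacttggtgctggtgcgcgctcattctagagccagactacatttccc
The first 4 sequences have 48.8%, 56.0%, 52.8% and 52.8% GC and hold 8, 16, 4 and 4 CpG dinucleotides. Cox7c has 37.2% GC and 2 CpG. The IgG-IP coverage of its promoter, described further on, was deepest outside these 250 bases. Over input its promoter log2 ratio was 0.77 in FC and 0.67 in CON. Over the same 250 bases the median was 56.0% GC and 14 CpG for the 45 genes and 54.0% GC and 8 CpG for all protein-coding genes. Sdhb carries the Sp1 letters 3 times and Ndufs5 the NRF1 letters once.

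In the window from 250 bases before to 50 after the TSS, the NRF1 letters occurred in 8 of 45 genes (17.8%) and in 8.15% of all protein-coding promoters of that length. The ETS letters occurred in 6 of 45 (13.3%) and in 10.8% of all, the YY1 letters in 3 of 45 (6.67%) and in 1.84% of all, and the Sp1 letters in 21 of 45 (46.7%) and in 43.4% of all. The mitochondrial ribosomal protein genes held these letters in 18.4%, 35.5%, 9.21% and 47.4%, in the same order. For the cytoplasmic ribosomal protein genes the shares were 7.5%, 30%, 5% and 47.5%. At least 1 of the 4 was found in 28 of the 45 genes and in 49.9% of all. Genes with the NRF1 letters included Ndufs5, Ndufs7 and Uqcrc1, and Ndufb10 with the letters after the TSS. Their median promoter log2 ratio was 1.32 in FC, against 1.71 for genes without them, and the order was the same in CON. With the YY1 letters the median was also lower in both groups, 1.35 against 1.71 in FC. The ETS letters went with a higher median, 2.18 against 1.69 in FC and 1.35 against 1.33 in CON. With the Sp1 letters the median was higher in FC and lower in CON. These orders were not tested. A letter match is a description and not a site of binding.

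Among the complex I genes, which build the proton-pumping entry point for NADH, 23 of 25 promoters in FC and 19 of 25 in CON passed 2-fold over IgG-IP, where the share of all genes was 49.1% and 42.4%. In the gene body 7 of 25 passed it in each group, near the all-gene shares of 32.3% and 24.3%. The 6 core subunits belong to the part of the enzyme that transfers electrons through flavin and iron-sulphur centres, and accessory subunits stabilise the complex. The other 19 genes were counted as accessory by name, among them Ndufa4, which was later assigned to cytochrome c oxidase. The median promoter ratio to IgG-IP was 1.29 (FC) and 1.10 (CON) for the core and 2.15 (FC) and 1.33 (CON) for the accessory genes. In the gene body the order was the other way, with 1.04 (FC) and 0.92 (CON) for the core and 0.80 and 0.76 for the accessory genes.

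Ndufs7, a core iron-sulphur subunit, had the highest gene-body ratio of complex I in FC and in the mean of both groups. It measured 1.03 RPKM in FC and 1.01 RPKM in CON H4K5ac-ChIP, 0.305 and 0.332 RPKM in IgG-IP, and 0.613 and 0.521 RPKM in input. Both H4K5ac-ChIP values lie above all 4 controls, and the ratio to IgG-IP was 1.76 (interval 1.24 to 2.32) in FC and 1.61 (1.14 to 2.12) in CON. Ndufs8, another core iron-sulphur subunit, had the highest H4K5ac-ChIP densities of the 45 gene bodies, 1.27 RPKM in FC and 1.24 RPKM in CON. Its IgG-IP values, 0.572 and 0.315 RPKM, differed more between the groups than its H4K5ac-ChIP values did, so its ratio was 1.15 in FC and 1.98 in CON.

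Ndufs4, an accessory subunit whose loss causes a Leigh-like encephalopathy in mice, had the lowest gene-body ratio of the complex in FC and in the mean of both groups, while Ndufb3 and Ndufb8 were lower in CON. With 100300 bp it is the longest of the complex I genes, and it measured 0.488 RPKM in FC and 0.516 RPKM in CON H4K5ac-ChIP against 0.366 and 0.391 RPKM in IgG-IP. In FC the ratio stood at 0.42 (0.27 to 0.56), and in CON at 0.40 (0.27 to 0.53), under 2-fold in both with narrow intervals from 1548 and 1861 H4K5ac-ChIP reads. Its promoter reached 1.35 and 1.32.

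Ndufs6, an accessory subunit near the iron-sulphur module, combined a low gene body with the highest mean promoter ratio among the sequences above. Its promoter held 87 (FC) and 90 (CON) H4K5ac-ChIP reads, 5 and 9 IgG-IP reads, and 55 and 27 input reads. In FC the promoter ratio reached 3.00 (1.72 to 4.66), in CON it reached 2.20 (1.21 to 3.37), while in the gene body it was 0.46 and 0.48. Ndufs5 had 89 and 80 H4K5ac-ChIP reads against 7 and 7 in IgG-IP, and Ndufb10 had 80 and 109 against 8 and 10. At Ndufa2, the lowest promoter of the complex by mean ratio over IgG-IP, 40 and 46 H4K5ac-ChIP reads stood against 15 and 14 in IgG-IP, and both intervals held 0.

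The remaining complex I genes are given by their place in the enzyme, with gene-body densities and H4K5ac-ChIP/IgG-IP ratios. The values of Ndufs1, the large core subunit that carries several iron-sulphur clusters, were 0.584 and 0.541 RPKM in H4K5ac-ChIP against 0.376 and 0.380 RPKM in IgG-IP and 0.374 and 0.406 RPKM in input, ratios of 0.63 and 0.51. For Ndufv1, the core subunit that binds NADH and flavin, H4K5ac-ChIP gave 0.852 and 0.696 RPKM, IgG-IP 0.531 and 0.445 RPKM and input 0.717 and 0.398 RPKM, and the ratios were 0.68 and 0.65. Ndufv2, a core iron-sulphur subunit, measured 0.567 and 0.579 RPKM in H4K5ac-ChIP, 0.296 and 0.368 RPKM in IgG-IP and 0.379 and 0.365 RPKM in input, with ratios of 0.94 and 0.66. These core genes of the NADH-binding module stayed under 2-fold in both groups, and for Ndufv1 the FC input density lay above the CON H4K5ac-ChIP density. The values of Ndufv3, an accessory subunit of the same module, were 0.596 and 0.700 RPKM in H4K5ac-ChIP against 0.362 and 0.400 RPKM in IgG-IP and 0.543 and 0.470 RPKM in input, ratios of 0.72 and 0.81. For Ndufa2, a small accessory subunit beside Ndufs1, H4K5ac-ChIP gave 0.710 and 0.752 RPKM, IgG-IP 0.409 and 0.417 RPKM and input 0.481 and 0.465 RPKM, and the ratios were 0.80 and 0.85. Ndufs6, described above for its promoter, measured 0.694 and 0.652 RPKM in H4K5ac-ChIP, 0.505 and 0.467 RPKM in IgG-IP and 0.619 and 0.443 RPKM in input, with ratios of 0.46 and 0.48. All H4K5ac-ChIP values of these 3 genes exceeded their controls, by a small margin for Ndufs6. The values of Ndufs3, a core subunit of the arm that leads electrons to ubiquinone, were 0.667 and 0.698 RPKM in H4K5ac-ChIP against 0.297 and 0.309 RPKM in IgG-IP and 0.488 and 0.398 RPKM in input, ratios of 1.17 and 1.17.

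In the arm that connects NADH oxidation to the membrane, accessory subunits gave mixed values. For Ndufa5, an accessory subunit of this arm, H4K5ac-ChIP gave 0.650 and 0.720 RPKM, IgG-IP 0.353 and 0.357 RPKM and input 0.445 and 0.401 RPKM, and the ratios were 0.88 and 1.01. Ndufa6, an accessory subunit of the LYR protein family, measured 0.800 and 0.803 RPKM in H4K5ac-ChIP, 0.463 and 0.219 RPKM in IgG-IP and 0.527 and 0.400 RPKM in input, with ratios of 0.79 and 1.88. The values of Ndufa9, an accessory subunit near the ubiquinone site, were 0.616 and 0.635 RPKM in H4K5ac-ChIP against 0.338 and 0.398 RPKM in IgG-IP and 0.635 and 0.449 RPKM in input, ratios of 0.87 and 0.67. The CON ratio of Ndufa6 was the highest after that of Ndufs8 among complex I genes, with an IgG-IP density in CON under that in FC, and the FC input of Ndufa9 was level with its CON H4K5ac-ChIP density. For Ndufa8, an accessory subunit on the intermembrane side, H4K5ac-ChIP gave 0.701 and 0.763 RPKM, IgG-IP 0.299 and 0.445 RPKM and input 0.680 and 0.508 RPKM, and the ratios were 1.23 and 0.78. Ndufa10, an accessory subunit of the proximal membrane arm, measured 0.726 and 0.778 RPKM in H4K5ac-ChIP, 0.461 and 0.383 RPKM in IgG-IP and 0.595 and 0.516 RPKM in input, with ratios of 0.65 and 1.02. The values of Ndufs5, an accessory subunit on the intermembrane side, were 0.616 and 0.461 RPKM in H4K5ac-ChIP against 0.350 and 0.342 RPKM in IgG-IP and 0.458 and 0.359 RPKM in input, ratios of 0.81 and 0.43. Each of these 3 genes had H4K5ac-ChIP densities above all its controls, with the narrowest margin for Ndufs5 in CON. For Ndufa4, listed with complex I by name and later assigned to cytochrome c oxidase, H4K5ac-ChIP gave 0.510 and 0.550 RPKM, IgG-IP 0.379 and 0.386 RPKM and input 0.297 and 0.574 RPKM, and the ratios were 0.43 and 0.51. Its CON input density lay above both H4K5ac-ChIP densities.

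The Ndufb genes encode accessory subunits of the distal membrane arm. Ndufb2, a single-span membrane subunit, measured 0.902 and 0.818 RPKM in H4K5ac-ChIP, 0.445 and 0.348 RPKM in IgG-IP and 0.553 and 0.430 RPKM in input, with ratios of 1.02 and 1.23. The values of Ndufb3, a further single-span membrane subunit, were 0.522 and 0.546 RPKM in H4K5ac-ChIP against 0.323 and 0.437 RPKM in IgG-IP and 0.343 and 0.344 RPKM in input, ratios of 0.69 and 0.32. For Ndufb5, a larger membrane subunit, H4K5ac-ChIP gave 0.781 and 0.774 RPKM, IgG-IP 0.372 and 0.470 RPKM and input 0.565 and 0.452 RPKM, and the ratios were 1.07 and 0.72. Among these, Ndufb2 was past 2-fold in both groups and Ndufb3 in neither. Ndufb6, a membrane subunit, measured 0.631 and 0.702 RPKM in H4K5ac-ChIP, 0.327 and 0.474 RPKM in IgG-IP and 0.434 and 0.479 RPKM in input, with ratios of 0.95 and 0.57. The values of Ndufb7, a subunit on the intermembrane side, were 0.996 and 0.814 RPKM in H4K5ac-ChIP against 0.347 and 0.465 RPKM in IgG-IP and 0.667 and 0.460 RPKM in input, ratios of 1.52 and 0.81. For Ndufb8, named again below for its promoter, H4K5ac-ChIP gave 0.663 and 0.708 RPKM, IgG-IP 0.380 and 0.547 RPKM and input 0.660 and 0.492 RPKM, and the ratios were 0.80 and 0.37. The FC input density of Ndufb8 was only just under its FC H4K5ac-ChIP density. Ndufb9, a LYR protein on the matrix side, measured 0.719 and 0.832 RPKM in H4K5ac-ChIP, 0.399 and 0.491 RPKM in IgG-IP and 0.671 and 0.590 RPKM in input, with ratios of 0.85 and 0.76. The values of Ndufb10, a subunit on the intermembrane side, were 0.654 and 0.655 RPKM in H4K5ac-ChIP against 0.398 and 0.376 RPKM in IgG-IP and 0.498 and 0.466 RPKM in input, ratios of 0.72 and 0.80. The distal arm held ratios from 0.69 to 1.52 in FC and from 0.32 to 1.23 in CON.

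Complex II feeds electrons from succinate into the chain and also works in the citric acid cycle. Its 4 genes had gene-body log2 ratios over IgG-IP of 0.60 to 1.03 in FC and 0.50 to 1.09 in CON. Sdhb, the iron-sulphur subunit, had the highest of them, with 0.719 and 0.709 RPKM in FC and CON H4K5ac-ChIP, 0.351 and 0.334 RPKM in IgG-IP, and 0.647 and 0.474 RPKM in input. Its promoter held the most FC H4K5ac-ChIP reads of the 45, 122, with 95 in CON, 7 and 14 in IgG-IP, and 58 and 33 in input. Sdha, the flavoprotein subunit, had the lowest gene-body ratio of complex II, 0.60 in FC and 0.50 in CON, from 0.611 and 0.610 RPKM in H4K5ac-ChIP and 0.402 and 0.433 RPKM in IgG-IP. Its promoter ratios were 0.81 and 0.88, and both intervals held 0. The membrane anchors lay between them. For Sdhc, the larger anchor, H4K5ac-ChIP gave 0.753 and 0.698 RPKM, IgG-IP 0.411 and 0.352 RPKM and input 0.499 and 0.445 RPKM, and the ratios were 0.88 and 0.99. Sdhd, the smaller anchor, measured 0.758 and 0.751 RPKM in H4K5ac-ChIP, 0.494 and 0.412 RPKM in IgG-IP and 0.568 and 0.439 RPKM in input, with ratios of 0.62 and 0.87. Both stayed above all their controls.

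Complex III passes electrons from ubiquinol to cytochrome c. All 5 promoters passed 2-fold over IgG-IP in FC and 4 of 5 did in CON, with Uqcrc2 at 0.91, beside 49.1% and 42.4% of all genes. Uqcrc1, a core structural subunit, had the highest gene-body ratio, 1.47 (1.05 to 1.92) in FC and 1.32 (0.91 to 1.75) in CON, from 0.777 and 0.662 RPKM in H4K5ac-ChIP, 0.280 and 0.265 RPKM in IgG-IP, and 0.610 and 0.409 RPKM in input. Uqcrfs1, the Rieske iron-sulphur protein, had the lowest gene-body ratios of the 45 in both groups, 0.34 (−0.30 to 1.02) and 0.22 (−0.39 to 0.87). It measured 0.482 and 0.435 RPKM in H4K5ac-ChIP, 0.381 and 0.372 RPKM in IgG-IP, and 0.277 and 0.463 RPKM in input, so the H4K5ac-ChIP value of CON lay within the range of its controls. Its promoter was nevertheless at 1.71 and 1.30, with 78 and 86 H4K5ac-ChIP reads against 11 and 16 in IgG-IP. The values of Uqcrc2, the second core structural subunit, were 0.622 and 0.665 RPKM in H4K5ac-ChIP against 0.382 and 0.397 RPKM in IgG-IP and 0.457 and 0.457 RPKM in input, ratios of 0.70 and 0.74. Its H4K5ac-ChIP densities were close between the groups and above all controls. For Uqcrb, a ubiquinone-binding subunit, H4K5ac-ChIP gave 0.777 and 0.584 RPKM, IgG-IP 0.505 and 0.458 RPKM and input 0.368 and 0.438 RPKM, and the ratios were 0.62 and 0.35. Cyc1, the heme subunit cytochrome c1, measured 0.840 and 0.450 RPKM in H4K5ac-ChIP, 0.342 and 0.226 RPKM in IgG-IP and 0.690 and 0.292 RPKM in input, with ratios of 1.30 and 0.99. In both of these genes FC H4K5ac-ChIP was higher than CON, and for Cyc1 the CON value lay under the FC input.

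Complex IV reduces oxygen to water. Cox5b, a subunit of its matrix side, had the highest gene-body ratio of FC in the whole set, 2.10 (0.89 to 3.61), with 1.60 (0.52 to 2.89) in CON. The gene spans 1899 bp, the shortest of the set, and the values rest on 56 and 53 H4K5ac-ChIP reads and on 6 and 8 IgG-IP reads. Cox4i1, a subunit that regulates the activity of the oxidase, had the lowest mean gene-body ratio of complex IV, 0.90 in FC and 0.66 in CON, and the highest promoter ratio of the 45, 3.50 (1.57 to 6.58) and 2.73 (1.30 to 4.66). That promoter held 49 and 58 H4K5ac-ChIP reads and 2 and 4 IgG-IP reads, and its divergent neighbour, named Cox4nb in the annotation, starts 178 bp away. The values of Cox5a, a matrix-side subunit, were 0.628 and 0.658 RPKM in H4K5ac-ChIP against 0.338 and 0.276 RPKM in IgG-IP and 0.344 and 0.378 RPKM in input, ratios of 0.89 and 1.253. For Cox6c, a membrane subunit, H4K5ac-ChIP gave 0.755 and 0.776 RPKM, IgG-IP 0.395 and 0.437 RPKM and input 0.402 and 0.417 RPKM, and the ratios were 0.94 and 0.83. Both genes lay above all their controls, Cox5a past 2-fold in CON alone.

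Cox7c, a small subunit of the oxidase, was the exception among the promoters and was singled out after its values were seen. Its gene body of 2089 bp held 32 and 54 H4K5ac-ChIP reads, 11 and 6 IgG-IP reads and 21 and 31 input reads, ratios of 0.42 and 2.05. Both H4K5ac-ChIP densities lay above those of the controls. Its promoter held 39 (FC) and 37 (CON) reads in H4K5ac-ChIP, 40 and 59 in IgG-IP, and 33 and 23 in input. IgG-IP density exceeded that of H4K5ac-ChIP in each group, with a log2 ratio of −1.16 in FC (−1.83 to −0.48) and of −1.80 in CON (−2.43 to −1.18). IgG-IP coverage was deepest in the bin of 50 bp centred 1075 bp upstream of the TSS, where it reached 10.9 reads in FC and 21.2 in CON. Counted once per position and strand, 15 (FC) and 15 (CON) IgG-IP reads remained, with 36 and 32 in H4K5ac-ChIP, and the ratio became 0.08 and −0.08. Among reads with a mapping score of at least 20, 15 and 10 IgG-IP reads remained and the ratio was 0.04 and 0.59. Over input it was 0.77 and 0.67. Without Cox7c the log2 ratio of the summed promoter reads of the set over IgG-IP moved from 1.66 to 1.78 in FC and from 1.26 to 1.39 in CON.

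Complex V makes ATP. Its 6 genes had median gene-body ratios of 1.12 in FC and 0.47 in CON and median promoter ratios of 1.76 and 1.69. Atp5d, the delta subunit of the central stalk, had the highest gene-body ratio, 1.80 (1.23 to 2.43) and 1.51 (1.00 to 2.05), from 0.933 and 0.886 RPKM in H4K5ac-ChIP, 0.268 and 0.312 RPKM in IgG-IP, and 0.524 and 0.365 RPKM in input. Atp5c1, the gamma subunit that forms the rotating shaft, had the lowest mean of both groups, with 0.85 (0.58 to 1.12) and 0.39 (0.15 to 0.63), from 0.732 and 0.633 RPKM in H4K5ac-ChIP, 0.407 and 0.483 RPKM in IgG-IP, and 0.521 and 0.439 RPKM in input. Atp5o, in the stalk, has an annotated body of 247290 bp on chromosome 16 that also spans Donson, Cryzl1 and Itsn1, so most of its 6682 and 7567 H4K5ac-ChIP reads lie in those genes. Over its consensus coding transcript alone the ratio was 1.27 in FC and 0.31 in CON, in place of 1.22 and 1.07. The 3 other genes were lower in CON than in FC relative to IgG-IP. Atp5a1, the alpha subunit of the catalytic head, measured 0.626 and 0.496 RPKM in H4K5ac-ChIP, 0.308 and 0.405 RPKM in IgG-IP and 0.558 and 0.472 RPKM in input, with ratios of 1.02 and 0.29. The values of Atp5b, the catalytic beta subunit, were 0.622 and 0.574 RPKM in H4K5ac-ChIP against 0.241 and 0.426 RPKM in IgG-IP and 0.461 and 0.495 RPKM in input, ratios of 1.37 and 0.43. For Atp5j, a stalk subunit, H4K5ac-ChIP gave 0.620 and 0.663 RPKM, IgG-IP 0.345 and 0.469 RPKM and input 0.409 and 0.447 RPKM, and the ratios were 0.84 and 0.50. IgG-IP was higher in CON than in FC in each of them, and for Atp5a1 the FC input exceeded the CON H4K5ac-ChIP density.

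Gene-body ratios went with base composition. Across the 45 genes, Spearman's rho between GC content of the gene body and the mean log2 ratio over IgG-IP was 0.56, and between gene length and the same ratio it was −0.18. These points share their libraries and are given as a description. Set against all gene bodies of equal GC content, the 45 genes had a median of 0.36 (FC) and 0.27 (CON), and 33 and 32 of them stayed above 0. Reads with a mapping score under 20 made up 5.17% of the H4K5ac-ChIP reads in these gene bodies and 6.39% in all protein-coding gene bodies.

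Between FC and CON, the share of H4K5ac-ChIP reads that fell on the respiratory chain genes was close to level. Every ratio is relative to the total reads of its library, so a change of the mark over the whole genome would not be seen in it. In the gene body the FC/CON log2 ratio of H4K5ac-ChIP had a median of 0.01 over the 45 genes, beside 0.04 over all protein-coding genes, and the sum of their reads gave 0.01 (−0.02 to 0.04). That sum includes the 6682 and 7567 reads of the Atp5o body, most of which lie in other genes. A sum without Atp5o is not given. A difference of at least 0.32 on the log2 scale was counted. In the gene body 4 of 45 genes were that much higher in FC (Ndufs5, Uqcrb, Cyc1 and Atp5a1), where the share of all genes was 12.3%, and 1 was lower (Cox7c), where it was 5.14%. At the promoter the median was 0.14, against 0.09 for all genes, and the summed reads gave 0.11 (0.03 to 0.18). There 9 of 45 genes were higher in FC, where the share of all genes was 27.5%, and 2 were lower, where it was 15.8%. Each of these shares is below that of all genes, but counting error alone passes a fixed difference more often where reads are few. The promoters of the 45 genes held a median of 67 and 68 H4K5ac-ChIP reads, against 40 and 43 for all genes. By interval, 6 gene bodies and 4 promoters lay above 0, beside 15.2% and 7.15% of all genes. The part of depth was not tested. The balance in the gene body turned with the control, since 5 genes were higher and 17 lower after subtraction of the input ratio, and 12 higher and 5 lower after subtraction of the IgG-IP ratio. At the promoter the same subtractions gave 7 higher and 13 lower, and 24 higher and 7 lower. The shares of all genes after subtraction are not given, so these counts cannot be read as particular to the 45 genes. Over all genes the subtracted input ratio had a median of 0.31 in the gene body and 0.28 at the promoter. For IgG-IP these medians were −0.06 and −0.08.

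The control libraries also differed between FC and CON. Input had a median FC/CON log2 ratio of 0.21 in the gene bodies and 0.24 in the promoters of the 45 genes, beside 0.31 and 0.28 over all genes. For IgG-IP the medians were −0.06 and −0.30, beside −0.06 and −0.08 over all genes. By the same difference of 0.32, input was higher in FC in 17 gene bodies, where the share of all genes was 49.0%, and lower in 3, where it was 12.2%. IgG-IP was higher in FC in 5 gene bodies, where the share of all genes was 9.97%, and lower in 9, where it was 15.8%. Of the 43 promoters with at least 10 IgG-IP reads in all, IgG-IP was higher in FC in 8, where the share of all genes was 28.5%, and lower in 21, where it was 36.3%. The median promoter ratio to IgG-IP, 1.71 for FC against 1.33 for CON, includes this difference, whose part in it was not tested. Across the 45 gene bodies, rho between GC content and the FC/CON ratio was 0.77 for input and 0.31 for H4K5ac-ChIP. Less the all-gene median at equal GC content, the median FC/CON ratio of H4K5ac-ChIP for the 45 genes went from 0.01 to −0.03 in the gene body and from 0.14 to 0.04 at the promoter.

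**Figure D4:**
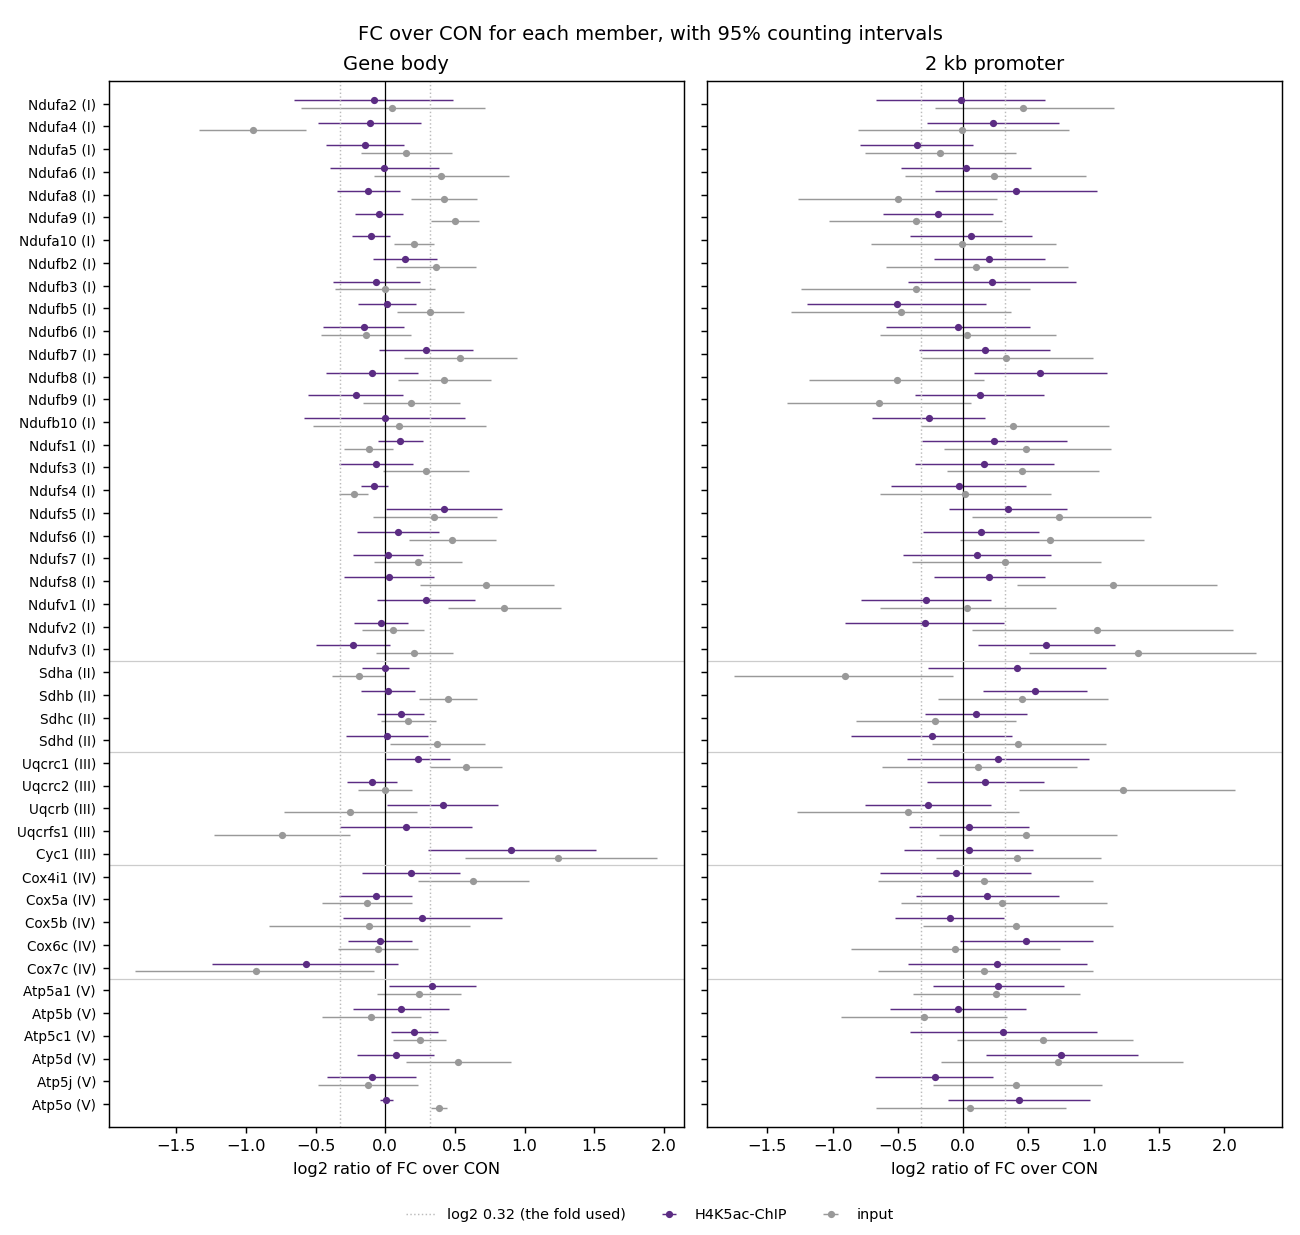
FC/CON log2 ratio (horizontal axis) of each of the 45 genes (vertical axis) in H4K5ac-ChIP (purple) and input (grey), with exact 95% binomial intervals of the reads, for the gene body (left) and the 2 kb promoter (right); dotted lines mark 0.32 in each direction. The H4K5ac-ChIP interval lies above 0 in 6 gene bodies and 4 promoters and below 0 in none, and that of input lies above 0 in 18 gene bodies and below it in 4.

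The H4K5ac-ChIP interval of FC over CON excluded 0 in 6 gene bodies, Ndufs5, Uqcrc1, Uqcrb, Cyc1, Atp5a1 and Atp5c1, all higher in FC. Over all protein-coding genes, 15.2% of these intervals lay above 0 and 9.51% below, and for input 51.1% lay above and 13.9% below. At the promoter the input interval lay above 0 in 5 of the 45 genes, where the share of all genes was 21.0%, and below 0 in 1, where it was 6.29%. Cyc1, the heme protein of complex III that hands electrons to cytochrome c, had the highest ratio, 0.90 (0.30 to 1.51), from 64 reads in FC and 39 in CON. Its input counts were 76 and 25 and its IgG-IP counts 12 and 9, so input differed by 1.24 (0.57 to 1.95) in the same direction. The gene has a GC content of 59.2%.

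Among the 38 genes with at least 100 gene-body reads in both H4K5ac-ChIP libraries, Uqcrb, Atp5a1 and Ndufb7 had the highest FC/CON ratios. Uqcrb, a ubiquinone-binding subunit of complex III, had 117 reads in FC and 100 in CON, a log2 ratio of 0.41 (0.02 to 0.81), with 80 and 74 input reads and 35 and 36 IgG-IP reads. Input there had a log2 ratio of −0.25. Atp5a1, the alpha subunit of the ATP synthase head, had 181 and 163 reads, 0.34 (0.02 to 0.65), with 233 and 153 in input. Ndufb7, an accessory subunit of complex I, stood at 0.29 (−0.04 to 0.63) from 156 and 145 reads. The 3 lowest were Ndufv3 at −0.23, Ndufb9 at −0.21 and Ndufb6 at −0.16, all accessory genes of complex I, and each interval held 0.

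At the promoter the 3 highest FC/CON ratios were those of Atp5d, Ndufv3 and Ndufb8. The interval excluded 0 in these and in Sdhb, 4 genes of 45, where the share of all genes was 7.15% above 0 and 2.6% below. Atp5d had 65 reads in FC and 44 in CON, a log2 ratio of 0.75 (0.18 to 1.34), but this promoter lies upstream of an annotated start that most of its transcripts do not use, and at the start shared by most transcripts the ratio was −0.0044. Ndufv3 had 75 and 55 reads, 0.63 (0.11 to 1.16), with 52 and 16 in input, an input ratio of 1.34 (0.51 to 2.24). Ndufb8, an accessory subunit often read as a marker of assembled complex I, had 78 and 59 reads, 0.59 (0.08 to 1.10), with 38 and 42 in input and 7 and 19 in IgG-IP. Sdhb followed with 0.55 (0.15 to 0.95). The 3 lowest were Ndufb5 at −0.50, Ndufa5 at −0.35 and Ndufv2 at −0.29, and each interval held 0. Across the 45 genes Spearman's rho was −0.06 between the gene-body and the promoter difference. Between FC and CON, rho of the H4K5ac-ChIP density was 0.83 at the promoter and 0.67 in the gene body, and rho of the ratio to IgG-IP was 0.35 and 0.45. These points share their libraries.

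Of 31 further nuclear subunit genes, 26 promoters in FC and 25 in CON passed 2-fold over IgG-IP, with medians of 1.43 and 1.68, where the share of all genes was 49.1% and 42.4%. In the gene body 19 and 18 of the 31 did, with medians of 1.13 and 1.05, against 15 and 14 of the 45 genes and 32.3% and 24.3% of all genes. Atp5g2, a gene for the ring subunit of ATP synthase, had the highest promoter ratio of them in both groups, 3.70 and 2.95, from 113 and 101 H4K5ac-ChIP reads and 4 and 6 IgG-IP reads. Cox8a had the lowest, 0.37 and 0.11, from 28 and 33 reads against 10 and 14. Between FC and CON, 4 of the 31 promoters were higher in FC by 0.32 or more and 4 lower, both under the all-gene shares of 27.5% and 15.8%. These promoters also held more reads, a median of 67 and 69 against 40 and 43 for all genes.

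Of 17 assembly factor genes, whose products build the complexes, 16 promoters in FC and 12 in CON passed 2-fold, with medians of 1.45 and 1.40, above the all-gene shares of 49.1% and 42.4%. Ttc19, a complex III assembly factor, had 78 promoter reads in FC H4K5ac-ChIP and 47 in CON, an FC/CON log2 ratio of 0.92. Its input held 60 and 21 reads, also more in FC, and its IgG-IP 6 and 3. The 7 regulator genes, transcription factors and coactivators of mitochondrial genes, had promoter medians of 1.00 and 1.55, with 3 and 6 past 2-fold, the first under and the second over those shares. Ppargc1a, the coactivator of mitochondrial biogenesis, had gene-body ratios of 0.03 and 0.29, from 1604 and 2142 H4K5ac-ChIP reads against 721 and 804 in IgG-IP. Tfam, which packages mitochondrial DNA, had 39 promoter reads in FC H4K5ac-ChIP and 77 in CON, an FC/CON log2 ratio of −0.80. Its input held 45 and 32 reads and its IgG-IP 13 and 10.

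For 8 subunit isoforms known from muscle, testis or lung, 2 promoters in FC and 5 in CON passed 2-fold over IgG-IP, with medians of 0.80 and 1.45, again under the all-gene share of 49.1% in FC and over that of 42.4% in CON. Cox7b2 and Cox8c, both testis isoforms, had more IgG-IP than H4K5ac-ChIP at the promoter after scaling, with log2 ratios of −1.39 and −0.41 for Cox7b2 and −1.50 and −0.49 for Cox8c. Cox8b, a muscle isoform, stood at 2.25 and 1.91 from 62 and 90 H4K5ac-ChIP reads. The isoforms spread from −1.50 to 2.25 in FC and from −0.49 to 1.91 in CON.

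Ribosomal protein genes, which are also expressed in every cell, gave medians like those of the respiratory chain genes. Promoter medians were 1.59 (FC) and 1.29 (CON) for the 76 mitochondrial and 1.76 (FC) and 1.29 (CON) for the 80 cytoplasmic ribosomal protein genes. The share past 2-fold at the promoter was 59 of 76 and 61 of 80 in FC, and 52 of 76 and 52 of 80 in CON. The upstream summit of coverage was 6.30 (FC) and 5.41 (CON) for the mitochondrial and 5.82 and 5.13 for the cytoplasmic ribosomal genes. Downstream of the TSS the cytoplasmic ribosomal genes reached 3.77 and 3.08 and the mitochondrial ones 4.61 and 4.38, beside 5.18 and 5.11 for the respiratory chain genes. With 1 library per group these differences between lists were not tested.

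**Figure D5:**
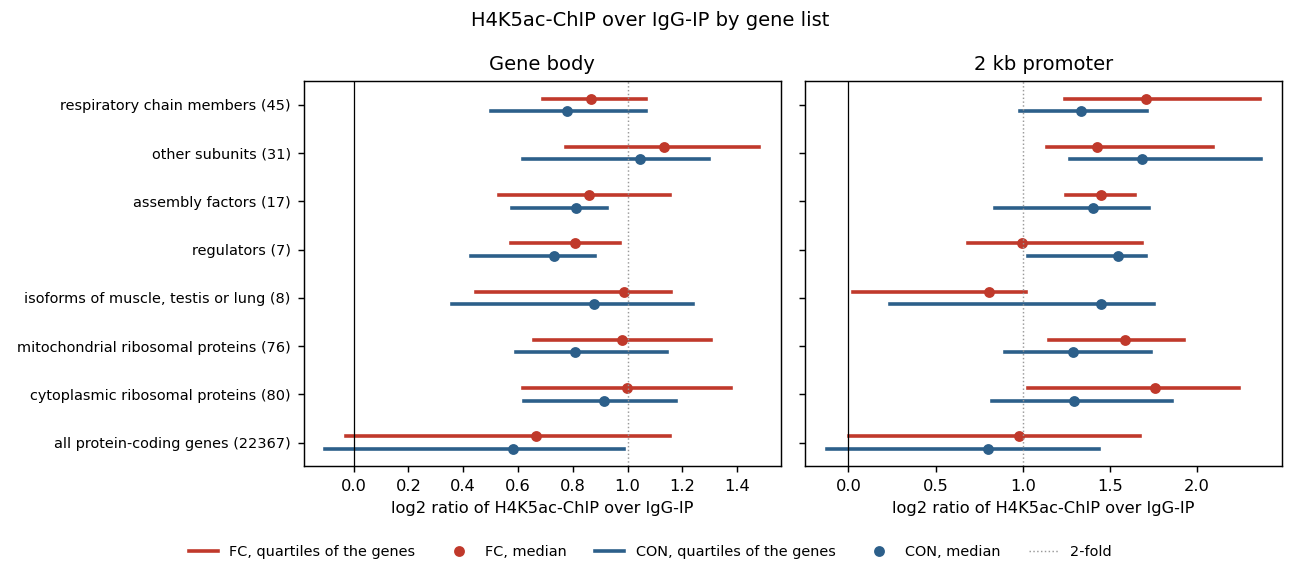
H4K5ac-ChIP/IgG-IP log2 ratio (horizontal axis) of each gene list with its number of genes (vertical axis) in FC (red) and CON (blue), for the gene body (left) and the 2 kb promoter (right); points are medians, bars span the lower to the upper quartile and the dotted line is 2-fold. At the promoter the respiratory chain genes have medians of 1.71 and 1.33, beside 1.59 and 1.29 for mitochondrial ribosomal protein genes and 0.98 and 0.80 for all protein-coding genes.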

How the data were processed

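Per the study's methods the authors sequenced 50-bp SOLiD reads and used Bioscope to place them on mm9, and BED records, 1 file per library, were deposited. The deposited score of a record is the mapping quality the authors' alignment gave, from 4 to 100, and the records are otherwise single reads without normalization. The paper describes 3 hippocampal samples per group, and 1 library per group and antibody was analysed here. Libraries were grouped by their labels.

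Reads that overlapped a protein-coding gene body or 2 kb promoter of the GENCODE annotation (NCBIM37) by at least 1 bp were counted with Python 3.11.15 and NumPy 2.4.6, and scaled to total reads. Intervals were exact (Clopper-Pearson, SciPy 1.17.1) at 95%. Genes with fewer than 10 reads in a pair of libraries were not called. Figures were drawn with matplotlib 3.10.9. Counting and intervals were tested on simulated data. The members, lists and tests were chosen with earlier results of these data known. Genes were named by rule: in each complex the highest and lowest mean gene-body ratio over IgG-IP, and the 3 highest and 3 lowest ratios of FC over CON, with at least 100 gene-body reads or 30 promoter reads in each H4K5ac-ChIP library. The rule also named the 36 genes under 2-fold in a gene body, whose gene-body values are all given. Cox7c, Cyc1 and Ndufs5 in the comparison of FC with CON, and genes outside the 45, were chosen after their values were seen. Ndufb2, Ndufs3, Ndufs8 and Atp5o are also described, though the rule did not name them. For Ndufb8 the known gene entry was used, not a short readthrough entry of the same name. Alternatives were 1 read per position and strand, a score of at least 20, read midpoints, the start shared by most transcripts, promoters of 5 kb, input as control, members without an overlapping gene, and subtraction of the median over all genes, of that at the same GC content in steps of 2%, or of the input or IgG-IP ratio. The consensus coding transcript, and all alternatives for coverage, were added after seeing the data.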

Additional observations from a re-analysis of the deposited data

How the results depend on the processing

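Of 100 alternative counts and summits, 72 stayed within 1.5 times the reported count or within counting error of the reported summit. Counts among the members without an overlapping gene were compared as shares of those members, against the reported share of the full set. A lower count there could therefore stay within 1.5 times, and an equal count could fall outside it. With input as control, gene bodies past 2-fold fell from 15 to 3 in FC and from 14 to 3 in CON. With the all-gene median subtracted they were 3 and 5, and promoters 20 (from 38) and 11 (from 33). With the median at the same GC content subtracted they were 1 and 2, and promoters 20 and 13. The shares of all genes after these subtractions are not given, so the lower counts cannot be read as particular to the 45 genes. At the same GC content 39 and 37 of the 45 promoters, and 33 and 32 gene bodies, stayed above 0.

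Gene bodies higher in FC by a log2 ratio of 0.32 or more, 4 as reported, were 2 with 1 read per position and strand, 7 with a score of at least 20, 3 among the 20 members without an overlapping gene and 12 with the IgG-IP ratio subtracted. Lower in FC, 1 as reported, were 1 of those 20, 17 with the input ratio subtracted and 5 with the IgG-IP ratio subtracted. Promoters higher in FC, 9 as reported, were 2 among the members without an overlapping gene, 2 with promoters of 5 kb and 24 with the IgG-IP ratio subtracted. Lower in FC, 2 as reported, were 1 with 1 read per position and strand, 0 among the members without an overlapping gene, 7 with the all-gene median subtracted, 6 at the same GC content, 13 with the input ratio and 7 with the IgG-IP ratio subtracted. Among the members without an overlapping gene the upstream summit was 8.25 in FC and 9.27 in CON. The shares of all genes under these alternatives are not given, and the causes were not tested.

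Of 2383 alternative log2 ratios of single members, 2014 lay within the interval of the reported ratio, 346 lay outside it and 23 changed the sign of a ratio past its fold. At the same GC content these were Ndufa6 (−0.0143), Ndufs8 (−0.0444) and Cox7c (0.0864) over IgG-IP at the FC promoter, and Ndufs8 (−0.10), Sdhb (−0.0613) and Cyc1 (−0.15) in the FC gene body. Cox7c at the promoter also changed with 1 read per position and strand (0.0848 in FC), a score of at least 20 (0.0445 and 0.59) and input as control (0.77 and 0.67). For FC over CON at the promoter, subtraction of the IgG-IP ratio gave Ndufa5 0.74, Sdha −0.0616, Cox6c −0.43 and Atp5o −0.95, subtraction of the input ratio gave Ndufs5 −0.40 and Ndufv3 −0.70, promoters of 5 kb gave Ndufb5 0.0363 and Sdha −0.0361, and Atp5d was −0.0044 both at the start shared by most transcripts and at the consensus coding transcript. In the gene body, subtraction of the input ratio gave Cyc1 −0.34 and Cox7c 0.36. No paired analysis was possible because each group had 1 library per antibody. Promoters in IgG-IP held 2 to 59 reads, so ratios over it are imprecise: the median interval was 2.21 wide in FC and 1.88 in CON.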
